A study of Mus musculus with 4 samples.

Results

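The 10 genes described here are 4 lipid-sensing nuclear receptors and 6 genes that these receptors are known to regulate, followed through bulk RNA-seq of mouse peritoneal macrophages. They were taken by name, and all 10 were among the 15298 genes with a value. The receptors were *Nr1h2* (LXRβ), *Nr1h3* (LXRα), *Ppard* (PPARδ) and *Pparg* (PPARγ). The targets were the cholesterol exporters *Abca1* and *Abcg1*, the lipoprotein gene *Apoe*, the ubiquitin ligase gene *Mylip*, the lipid droplet coat gene *Plin2* and the fatty acid-binding protein gene *Fabp4*.

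The study compared macrophages with and without microcurrent stimulation (MCS) at 2 zeitgeber times (ZT, hours after lights on), with 1 library each, named Cont_ZT2, Cont_ZT14, MCS_ZT2 and MCS_ZT14 (Cont, control). All libraries came from female BALB/c mice aged 6 weeks, and the cells were sorted as CD11b+ F4/80+ Ly6G- from the peritoneal cavity. Every mouse was anesthetized with isoflurane and fitted with electrode pads on abdomen and back. MCS mice received a bidirectional pulsed current of 300 µA at 400 Hz for 15 min, whereas control mice received no current. The ZT2 libraries were taken right after the procedure and the ZT14 libraries 12 h later. The sources used here do not give how many mice went into each library, and no value has a replicate, so the intervals below cover counting error only and compare libraries rather than groups of mice. In bulk RNA, fewer cells of a type and less RNA per cell cannot be told apart.

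LXRs and PPARs are transcription factors of the nuclear receptor family that bind DNA together with a retinoid X receptor (RXR). LXRs are activated by oxidized cholesterol and turn on genes that move cholesterol out of the cell, while PPARs are activated by fatty acids and turn on genes of fatty acid uptake, storage and oxidation. Macrophages take up lipid with the cells and debris they engulf, and these programs are known to govern how that lipid is stored, burned or exported.

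The gene locations are those of GENCODE on GRCm38, from the first to the last base of each protein-coding gene. The receptors lie at chr7:44549616-44553951 (*Nr1h2*, minus strand), chr2:91184061-91202834 (*Nr1h3*, minus strand), chr17:28232700-28301474 (*Ppard*, plus strand) and chr6:115360951-115490399 (*Pparg*, plus strand). The exporters lie at chr4:53030787-53159895 (*Abca1*, minus strand) and chr17:31057675-31117988 (*Abcg1*, plus strand), *Apoe* at chr7:19696109-19699188 (minus strand) and *Mylip* at chr13:45389742-45412022 (plus strand). *Plin2* lies at chr4:86648386-86670060 and *Fabp4* at chr3:10204088-10208576, both on the minus strand.

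Both receptor families recognize pairs of the half-site AGGTCA, classically spaced by 4 bases for LXR and by 1 base for PPAR, and the clock proteins CLOCK and ARNTL bind the E-box CACGTG. Promoter sequences, from 250 bases before to 50 after the transcription start, were found in RefSeq (GRCm38.p6) for 8 of the 10 genes, with 13 starts in all. *Abcg1* and *Fabp4* had none. An E-box was present in the *Abca1* and the *Plin2* promoter and in 7.15% of all 32851 promoters (its 2 strands read alike). The half-site pairs were searched on both strands with up to 3 mismatches over their 12 letters, limits that were chosen after the *Abca1* sequence was seen. Of all promoters, 21.9% held a pair spaced by 4 bases and 24.6% one spaced by 1 base. Further matches were found at 1 of 3 *Apoe* starts (spacer of 1 base) and 1 of 3 *Pparg* starts (spacer of 4 bases). A match describes letters in this window only. The stretches of *Abca1* and *Plin2* are shown because these genes hold matches and stood on opposite sides of the comparisons below. In the *Abca1* stretch (chr4:53159937-53160052, minus strand, from 157 to 42 bases before the start), capitals mark the E-box and then, on the opposite strand, a pair of half-sites spaced by 4 bases with 3 mismatches. In the *Plin2* stretch (chr4:86670058-86670294, minus strand, from 235 bases before the start to position 2), capitals mark the better of 2 matches spaced by 1 base, on the opposite strand with 2 mismatches, and then the E-box over the start.
Abca1: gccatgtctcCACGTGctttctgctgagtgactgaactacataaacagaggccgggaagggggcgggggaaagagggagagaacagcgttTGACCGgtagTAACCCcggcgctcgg
Plin2: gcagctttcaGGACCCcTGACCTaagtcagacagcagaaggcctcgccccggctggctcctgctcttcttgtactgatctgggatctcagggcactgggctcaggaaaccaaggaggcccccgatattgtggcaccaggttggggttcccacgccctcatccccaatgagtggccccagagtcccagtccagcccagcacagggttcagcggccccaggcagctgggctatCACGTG

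The values are CPM, read counts that the authors scaled with edgeR. Their scale matched library sizes multiplied by TMM factors, the normalization factors of edgeR, when these were recomputed. The reads recovered from the values totaled between 8365590 and 9953243 per library. A count of 0 allows up to 3 reads, which in these libraries is 0.307 to 0.348 CPM. For log2 ratios 0.1 CPM was added to each value, and each is given with its 95% interval for counting error. The limits for a call were ones that the study's methods also use. A gene was called when its log2 ratio lay beyond -1 or 1 and the log2 of its mean CPM over both libraries was above 0. A gene low in 1 library could therefore pass this minimum through the other library alone. At these limits 3.40% of 12368 genes were called for MCS against control at ZT14, 2.21% of 12612 at ZT2, 3.61% of 12465 for ZT2 against ZT14 in control and 5.83% of 12534 for the same times in MCS.

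Levels of the receptors were compared per kb of transcript, using the longest coding transcript in GENCODE. *Nr1h2*, the LXR present in most tissues, had between 33.5 and 35.2 CPM per kb over the 4 libraries. *Ppard*, a broadly expressed regulator of fatty acid use, had between 8.53 and 11.6 CPM per kb. *Nr1h3*, the LXR typical of liver and macrophages, had between 1.24 and 2.70 CPM per kb, and *Pparg*, best known from fat tissue and alveolar macrophages, had between 0.289 and 0.815 CPM per kb. These ranges did not overlap, so *Nr1h2* was the most abundant receptor and *Pparg* the least in every library. Among the targets, *Apoe* had between 4774 and 6358 CPM per kb and *Plin2* between 50.1 and 184 CPM per kb. *Abca1* lay between 35.1 and 56.7 CPM per kb, a range that overlapped those of *Plin2*, *Abcg1* (16.6 to 47.6 CPM per kb) and *Nr1h2*. *Mylip* (14.7 to 34.4 CPM per kb) overlapped *Abcg1*, and *Fabp4* (6.74 to 9.32 CPM per kb) overlapped *Ppard*.

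**Figure D1:**
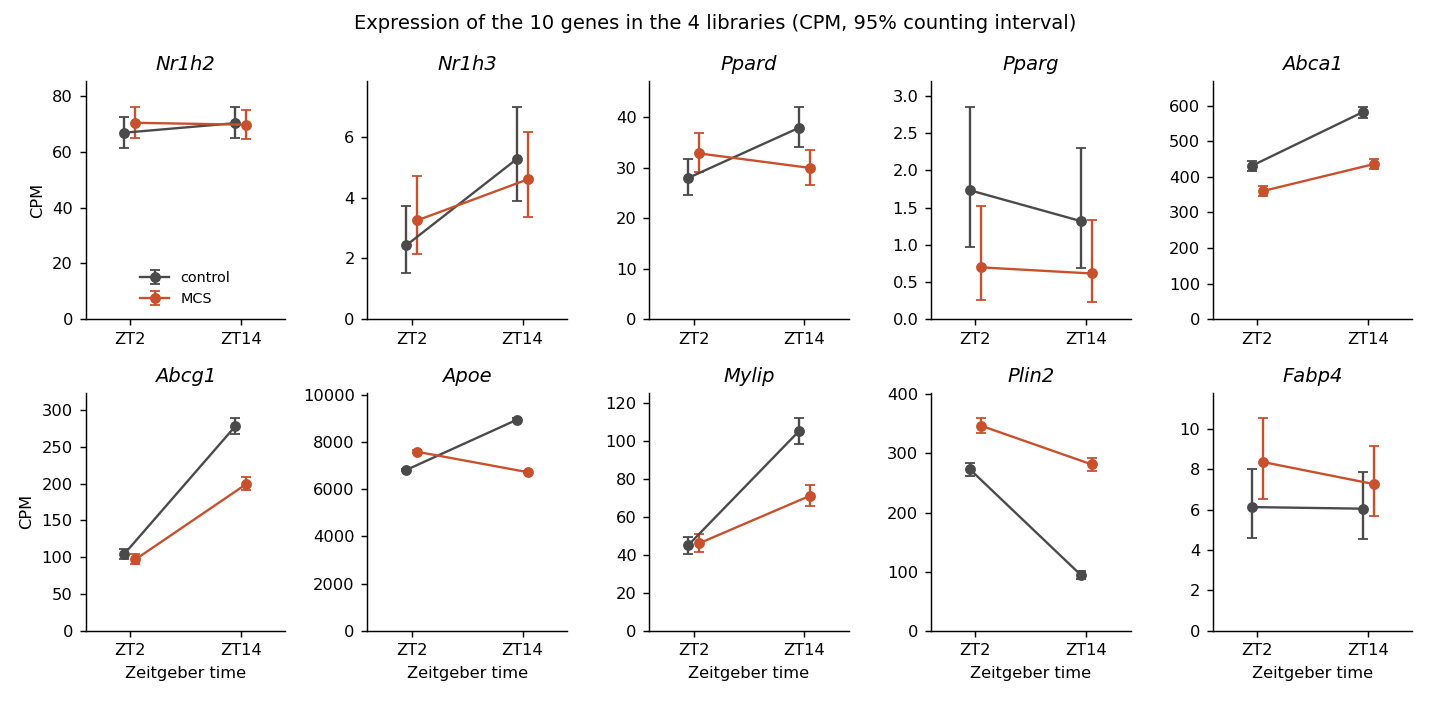
CPM of the 10 genes at ZT2 and ZT14 in control (grey) and MCS (orange), 1 library per point, with bars for the exact 95% counting interval; each panel has its own axis from 0. In control, *Abcg1* and *Mylip* were higher and *Plin2* was lower at ZT14 than at ZT2, and at ZT14 the MCS library lay below control for the first pair and above it for *Plin2*.

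Of the receptors, *Nr1h2* differed least between the libraries. It had 66.9 CPM in Cont_ZT2, 70.3 CPM in Cont_ZT14, 70.4 CPM in MCS_ZT2 and 69.7 CPM in MCS_ZT14. Its 4 log2 ratios lay between -0.07 and 0.07, and no interval reached beyond 0.24 in either direction. *Nr1h3* had 2.43 and 5.27 CPM in Cont_ZT2 and Cont_ZT14, and 3.25 and 4.60 CPM in MCS_ZT2 and MCS_ZT14. It was called in control, with a log2 ratio of ZT2 to ZT14 of -1.09 (95% interval -1.93 to -0.35), which rests on 21 against 48 reads. In MCS the ratio was -0.49 (-1.24 to 0.21), and between MCS and control the intervals of *Nr1h3* held 0 at both times. Exons of *Gm13783* overlap *Nr1h3* on the same strand in GENCODE, so that some of its reads cannot be assigned with certainty.

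*Ppard* had 27.9 CPM in Cont_ZT2 and 32.8 CPM in MCS_ZT2, and 37.9 CPM in Cont_ZT14 and 30.0 CPM in MCS_ZT14. Control at ZT14 was the highest library and control at ZT2 the lowest. The log2 ratio of MCS to control was -0.34 (-0.57 to -0.11) at ZT14 and 0.23 (-0.02 to 0.49) at ZT2. *Pparg* had 1.73 and 1.32 CPM in Cont_ZT2 and Cont_ZT14, and 0.696 and 0.614 CPM in MCS_ZT2 and MCS_ZT14. Both MCS libraries held fewer reads of it (6 each) than the control libraries (15 and 12). *Pparg* was called at ZT2, with a log2 ratio of -1.20, although the interval from -2.97 to 0.13 held 0. There *Pparg* passed the minimum expression through Cont_ZT2 alone, so it could be called only as lower. At ZT14 it fell below the minimum expression and was not tested.

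The exporter genes were highest in control at ZT14. *Abca1*, whose product loads cholesterol onto lipid-poor apolipoprotein A-I, had 431 and 582 CPM in Cont_ZT2 and Cont_ZT14, and 360 and 436 CPM in MCS_ZT2 and MCS_ZT14. Both MCS libraries lay below the control library of the same time, with a log2 ratio of -0.42 (-0.48 to -0.36) at ZT14 and -0.26 (-0.33 to -0.19) at ZT2. *Abcg1*, whose product exports cholesterol to mature high-density lipoprotein, had 104 and 278 CPM in Cont_ZT2 and Cont_ZT14, against 97.0 and 199 CPM in MCS_ZT2 and MCS_ZT14. It was called for time in both settings, with a log2 ratio of ZT2 to ZT14 of -1.41 (-1.52 to -1.30) in control and -1.04 (-1.16 to -0.92) in MCS. At ZT14 it was lower with MCS by a log2 ratio of -0.48 (-0.56 to -0.39), whereas at ZT2 the interval held 0 (-0.24 to 0.03). The summed B cell marker genes were also highest in Cont_ZT14, at 1400 CPM against 965 to 1149 CPM elsewhere, and their part in these values was not tested.

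*Mylip*, which encodes the ligase IDOL that marks the LDL receptor for degradation, followed *Abcg1*. It had 45.0 and 105 CPM in Cont_ZT2 and Cont_ZT14, and 46.2 and 71.3 CPM in MCS_ZT2 and MCS_ZT14. The ZT2 libraries were alike, with a log2 ratio of MCS to control of 0.04 (-0.17 to 0.24), and at ZT14 the ratio was -0.56 (-0.71 to -0.42). Its ratio of ZT2 to ZT14 was called in control, at -1.22 (-1.40 to -1.05), and was -0.63 (-0.81 to -0.45) in MCS.

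*Apoe*, the lipoprotein component that macrophages secrete and that accepts exported cholesterol, was by far the most abundant of the 10 genes. It had 6817 CPM in Cont_ZT2 and 7589 CPM in MCS_ZT2, and 8952 CPM in Cont_ZT14 and 6722 CPM in MCS_ZT14. Cont_ZT14 was the highest library and MCS_ZT14 the lowest, and the order of MCS and control was reversed at ZT2. The log2 ratio of MCS to control was -0.41 (-0.43 to -0.40) at ZT14 and 0.15 (0.14 to 0.17) at ZT2. Its intervals are narrow because of its many reads, and they do not contain the spread between mice.

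*Plin2*, which encodes the protein that coats the lipid droplets of macrophages, ran opposite to the exporters. It had 273 CPM in Cont_ZT2 and 94.6 CPM in Cont_ZT14, and 347 and 281 CPM in MCS. Control at ZT14 stood apart from the other libraries, and MCS_ZT14 lay above Cont_ZT2. *Plin2* was the only one of the 9 tested genes called for MCS at ZT14, 2.97-fold higher with MCS (log2 ratio 1.57, 95% interval 1.46 to 1.68). At ZT2 the ratio was 0.34 (0.27 to 0.42). From ZT14 to ZT2 it was 2.89-fold higher in control, a called log2 ratio of 1.53 (1.42 to 1.64), and 1.23-fold higher in MCS. A stretch of 259 bases of *Plin2* is 96.1% identical to *Gm12551*, so reads from that stretch are uncertain. Summed fibroblast, mesothelial, eosinophil and red blood cell marker genes were also lowest in Cont_ZT14, at 4.06, 5.27, 1.98 and 1.32 CPM, and all 4 sums were higher with MCS at both times. The mesothelial genes did not move together. Of the 3 tested for MCS at ZT14, 2 were higher and 1, *Krt8*, was lower, at 1.76 CPM in control and 0.818 CPM with MCS. None of these intervals left out 0. The eosinophil sum rests on 2 of 6 listed genes. The part of these cells in the values of *Plin2* was not tested. *Fabp4*, a fatty acid carrier and classical PPARγ target, had 6.12 and 6.04 CPM in Cont_ZT2 and Cont_ZT14, against 8.35 and 7.26 CPM in MCS_ZT2 and MCS_ZT14. Both MCS libraries lay above both control libraries, with log2 ratios of 0.26 (-0.26 to 0.80) at ZT14 and 0.44 (-0.08 to 0.99) at ZT2. All 4 intervals of *Fabp4* held 0, at 53 to 72 reads per library.

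**Figure D2:**
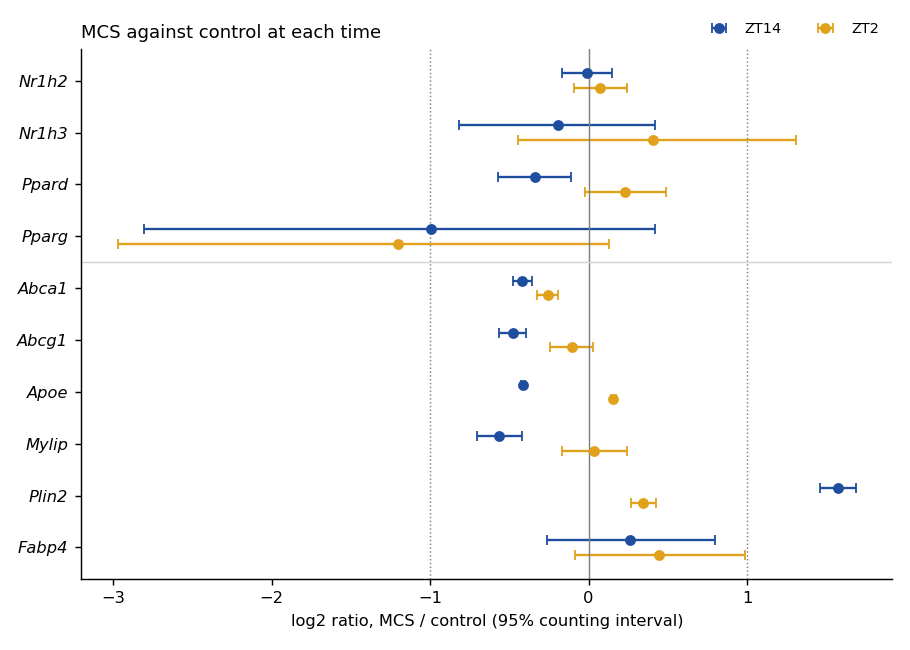
Log2 ratio of MCS to control for the 10 genes at ZT14 (blue) and ZT2 (yellow), with bars for the 95% counting interval; dotted lines mark ratios of -1 and 1, and the grey line separates receptors from targets. At ZT14 *Plin2* lies at 1.57 and *Ppard*, *Abca1*, *Abcg1*, *Apoe* and *Mylip* lie between -0.56 and -0.34.

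At ZT14 *Plin2* was called and the log2 ratios of *Abca1*, *Abcg1* and *Apoe* lay below 0 without reaching the limit for a call. Of the 9 genes tested there, 7 were lower with MCS, and the median log2 ratio was -0.34, against 0.00 for all genes, 49.6% of which were lower. The counting interval left out 0 for 6 of the 9 genes, *Ppard*, *Abca1*, *Abcg1*, *Mylip* and *Apoe* being lower and *Plin2* higher, beside 37.6% of all genes. Intervals narrow with reads, so an abundant gene leaves out 0 more readily. At ZT2, 7 of the 10 genes were higher with MCS, the median was 0.11, and the interval left out 0 for *Abca1*, *Apoe* and *Plin2*, 3 of 10 genes beside 22.5% of all. The single gene called at each time, *Plin2* at ZT14 and *Pparg* at ZT2, stands beside the 3.40% and 2.21% called among all genes. The call of *Pparg* passed the minimum expression through Cont_ZT2 alone.

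The difference between the MCS ratios at ZT14 and at ZT2 was computed from the reads without the added 0.1 CPM, with its counting interval. It was 1.23 (1.09 to 1.36) for *Plin2*, and -0.60 (-0.85 to -0.35) for *Mylip*. *Ppard* and *Apoe* had -0.57 each, with intervals from -0.91 to -0.24 and from -0.59 to -0.55, and *Abcg1* had -0.37 (-0.53 to -0.21). For *Abca1* the difference was smaller, at -0.16 (-0.25 to -0.07). The intervals of *Nr1h2*, *Nr1h3*, *Pparg* and *Fabp4* held 0.

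Between the times, 4 of the 10 genes were called in control, *Nr1h3*, *Abcg1* and *Mylip* with more RNA at ZT14 and *Plin2* with more at ZT2, beside 3.61% of all genes. Intervals left out 0 for 7 of the 10 genes, against 29.5% of all. In MCS, *Abcg1* was called, 1 of 9 genes beside 5.83%, and intervals left out 0 for 5 of the 9 genes, against 44.0% of all. For 9 of the 10 genes, *Fabp4* being the exception, the ratio of ZT2 to ZT14 in MCS was nearer to 0 than that in control. Without *Pparg*, which was not tested in MCS, this was 8 of 9 genes. The same held for 40.1% of all 12295 genes tested in both and for 79.4% of the 422 genes called in control. *Nr1h2*, *Ppard* and *Apoe* had opposite signs in control and MCS, with *Ppard* at -0.44 (-0.68 to -0.20) and 0.13 (-0.11 to 0.37), and *Apoe* at -0.39 (-0.41 to -0.38) and 0.18 (0.16 to 0.19). The ratios for MCS and for time share libraries, control at ZT14 in particular, so a value that is unusual there enters both.

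**Figure D3:**
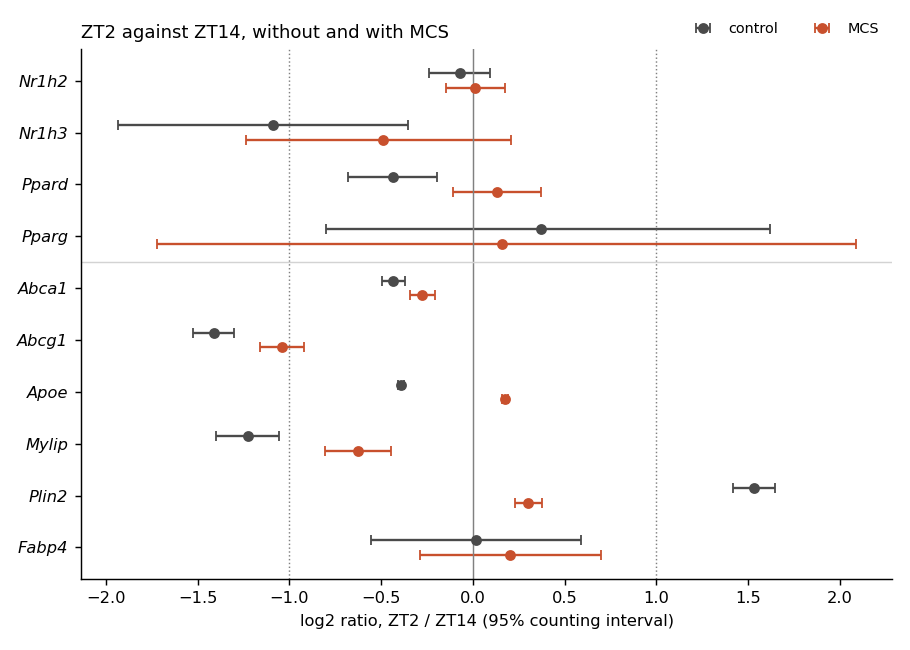
Log2 ratio of ZT2 to ZT14 for the 10 genes in control (grey) and MCS (orange), with bars for the 95% counting interval; dotted lines mark ratios of -1 and 1. *Abcg1* and *Mylip* lie at -1.41 and -1.22 in control and at -1.04 and -0.63 in MCS, and *Plin2* lies at 1.53 and 0.30.

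A count test over the 4 libraries was added to this description, edgeR's quasi-likelihood test with additive terms for MCS and time and Benjamini-Hochberg adjustment over 12404 genes. It takes the effect of MCS to be equal at ZT2 and ZT14, has 1 residual degree of freedom, and left out *Pparg* for its few reads. Its p-values rest on the spread of single libraries around this fit, not on replicate mice. For time it called 3 of the 9 genes, beside 2.18% of all genes. *Abcg1* fell at ZT2 against ZT14 by 1.23 on the log2 scale (adjusted p = 3.9e-05, edgeR) and *Mylip* by 0.93 (adjusted p = 0.0016, edgeR), while *Plin2* rose by 0.91 (adjusted p = 0.015, edgeR). For *Plin2* this call was lost with DESeq2, where the adjusted p was 0.9999. For MCS edgeR called 0 of the 9 genes, beside 0.185% of all. At an unadjusted p under 0.05 there was 1 of the 9 genes, beside 2.41% of all. This gene was *Plin2*, with a log2 change of 0.95 and an adjusted p of 0.060 in edgeR, and DESeq2 called 0. *Plin2* was higher with MCS at both times, by unequal log2 ratios of 1.57 and 0.34, whereas the test fits 1 common effect.

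The wider pathway was followed with 5 further lists, which held 90 other genes, 84 of them with values. At ZT14, 4 of the 76 tested genes were called for MCS, all higher, which is 5.26% beside the 3.40% of all genes. Of these, *Pdk4*, *Angptl4* and *Mgll* passed the minimum expression through MCS_ZT14 alone, so they could be called only as higher. At ZT2, 2 of 75 were called, both lower (2.67% beside 2.21%), of which *Ppara* passed the minimum expression through Cont_ZT2 alone. Between the times 5 of 74 genes were called in control (6.76% beside 3.61%). Of these, *Pdk4*, *Apoc4* and *Fabp3* passed the minimum expression through 1 library alone, which fixed their direction. In MCS 5 of 76 were called (6.58% beside 5.83%), *Ppara*, *Scd2*, *Fabp5*, *Hilpda* and *Mgll*, all lower at ZT2. Here *Ppara* passed the minimum expression through MCS_ZT14 alone. The count test for MCS called 0 genes of each list with edgeR and with DESeq2, and at an unadjusted p under 0.05 there were 2 of 14 LXR targets, 5 of 23 PPAR targets, 1 of 10 droplet genes and 0 genes of the other lists, beside 2.41% of all genes.

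Among 17 RXRs, PPARα and coregulators, none of the 15 tested was called at ZT14. Their median log2 ratio of MCS to control was -0.30 at ZT14, with 10 lower and 5 higher, and 0.16 at ZT2, with 3 lower and 12 higher. *Ncor1*, a corepressor that keeps unliganded receptors silent, had 379 CPM in Cont_ZT14 and 288 CPM in MCS_ZT14, and 326 and 381 CPM in Cont_ZT2 and MCS_ZT2. The coactivators *Ep300* and *Ncoa3* had log2 ratios of -0.30 and -0.21 at ZT14 and of 0.32 and 0.14 at ZT2. *Ppara*, the fatty acid oxidation receptor, was called at ZT2, with 1.62 CPM in control and 0.464 CPM with MCS, and between the times in MCS. Both calls rest on 4 reads in MCS_ZT2, against 14 in Cont_ZT2 and 16 in MCS_ZT14. In both comparisons *Ppara* passed the minimum expression through the other library alone, so it could be called only as lower in MCS_ZT2. At ZT14 it had 1.43 CPM in control and 1.64 CPM with MCS.

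Ratios followed transcript length in these libraries. Over all genes tested at ZT14 with a coding transcript in GENCODE (92.2%), the median log2 ratio of MCS to control was 0.15 for transcripts under 2 kb, 0.01 from 2 to 5 kb and -0.10 over 5 kb. At ZT2 these medians were -0.04, 0.01 and 0.03, and between the times in MCS they ran from -0.15 under 2 kb to 0.11 over 5 kb. *Ncor1*, *Ep300* and *Ncoa3* have transcripts between 7531 and 9566 bases, *Abca1* one of 10262 and *Abcg1* one of 5832 bases. *Mylip* has 3065, *Plin2* 1888 and *Apoe* 1408 bases. Of the PPAR targets described below, *Hilpda* has 982, *Fabp5* 987, *Angptl4* 3308, *Pdk4* 3484 and *Cpt1a* 4317 bases. The part of length in the values of the single genes and in the list medians was not tested.

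Of 17 further LXR targets, 14 were tested at ZT14 and none was called for MCS, with a median log2 ratio of -0.04. *Scd2*, a fatty acid desaturase, had 47.9 and 139 CPM in Cont_ZT2 and Cont_ZT14, and 43.4 and 87.1 CPM in MCS_ZT2 and MCS_ZT14, so the order of its libraries was that of *Abcg1*. It was called for time in control (-1.54) and in MCS (-1.004), and the count test also called it for time (adjusted p = 2.1e-05, edgeR). The related desaturase *Scd1* had 640 CPM in Cont_ZT14 and 370 CPM in MCS_ZT14, a log2 ratio of -0.79 (-0.85 to -0.73), and -0.04 at ZT2. *Pltp*, which transfers phospholipid between lipoproteins, had -0.32 (-0.36 to -0.28) at ZT14. *Cd5l*, a secreted macrophage protein induced by LXR, went the other way, with 283 CPM in Cont_ZT14 and 452 CPM in MCS_ZT14 and 369 and 286 CPM at ZT2. *Smpdl3a* had a log2 ratio of 0.19 at ZT14. *Mertk*, a receptor for apoptotic cells, was called by the count test for time, 0.79 higher at ZT2 on the log2 scale (adjusted p = 0.0056, edgeR). *Apoc4* was called for time in control, at 0.693 CPM and 1.65 CPM, with an interval that held 0 (-2.90 to 0.20). It passed the minimum expression there through Cont_ZT14 alone.

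Of 24 further PPAR targets, 23 were tested at ZT14, where 16 were higher with MCS, beside 50.4% of all genes. Their median log2 ratio was 0.28, against 0.00 for all genes. Called were *Pdk4*, *Angptl4* and *Fabp5*, all higher with MCS, 3 of 23 genes beside the 3.40% of all genes. *Pdk4* and *Angptl4* passed the minimum expression through MCS_ZT14 alone, and none of these genes reached a log2 mean above 3. *Pdk4*, the kinase that shuts pyruvate out of oxidation when fatty acids are burned, had 11.3 CPM in Cont_ZT2, no read in control at ZT14, 13.9 CPM in MCS_ZT2 and 8.90 CPM in MCS_ZT14. It was at least 27.0-fold higher with MCS at ZT14, measured against the floor of 3 reads in the control library, and at least 34.3-fold higher in Cont_ZT2 than in Cont_ZT14. The list median was 0.28 also with *Pdk4* at this bound, as it had to be, because *Pdk4* stayed the highest of the list. *Angptl4*, an inhibitor of lipoprotein lipase, had 0.439 CPM in Cont_ZT14 and 1.94 CPM in MCS_ZT14, a log2 ratio of 1.92 (0.56 to 4.16). *Fabp5*, the other main fatty acid carrier of macrophages, had 1.32 CPM and 4.29 CPM in the same libraries, and the highest of its 4 values was that of MCS_ZT14. From Cont_ZT14 to MCS_ZT14 the 2 eosinophil marker genes with values, of 6 listed, went from 1.98 to 48.0 CPM in sum. The summed marker genes of red blood cells went from 1.32 to 112 CPM and those of fibroblasts from 4.06 to 9.51 CPM. The eosinophil and red blood cell sums were highest in MCS_ZT14. The part of these cells in the values of the PPAR targets was not tested. *Cpt1a*, which admits fatty acids to mitochondria, had 180 and 88.9 CPM in Cont_ZT2 and Cont_ZT14, and 205 and 143 CPM in MCS_ZT2 and MCS_ZT14. It was called for time in control, and at ZT14 it was higher with MCS, by a log2 ratio of 0.68 (0.56 to 0.81). *Hilpda*, a lipid droplet protein that inhibits lipolysis, had 2.64 CPM in Cont_ZT14 and 5.01 CPM in MCS_ZT14, and was called lower with MCS at ZT2, at 4.85 against 2.32 CPM. *Fabp3* was called for time in control, at 0.693 CPM and 2.20 CPM, and passed the minimum expression through Cont_ZT14 alone. The abundant targets *Ucp2* and *Cd36*, a mitochondrial carrier and a lipid scavenger receptor, had log2 ratios of 0.23 and 0.30 at ZT14, and *Hadha*, of fatty acid oxidation, had 0.21. The count test called *Pdk4* and *Cpt1a* of this list for time (adjusted p = 0.024 and 0.010, edgeR), neither of which DESeq2 called.

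**Figure D4:**
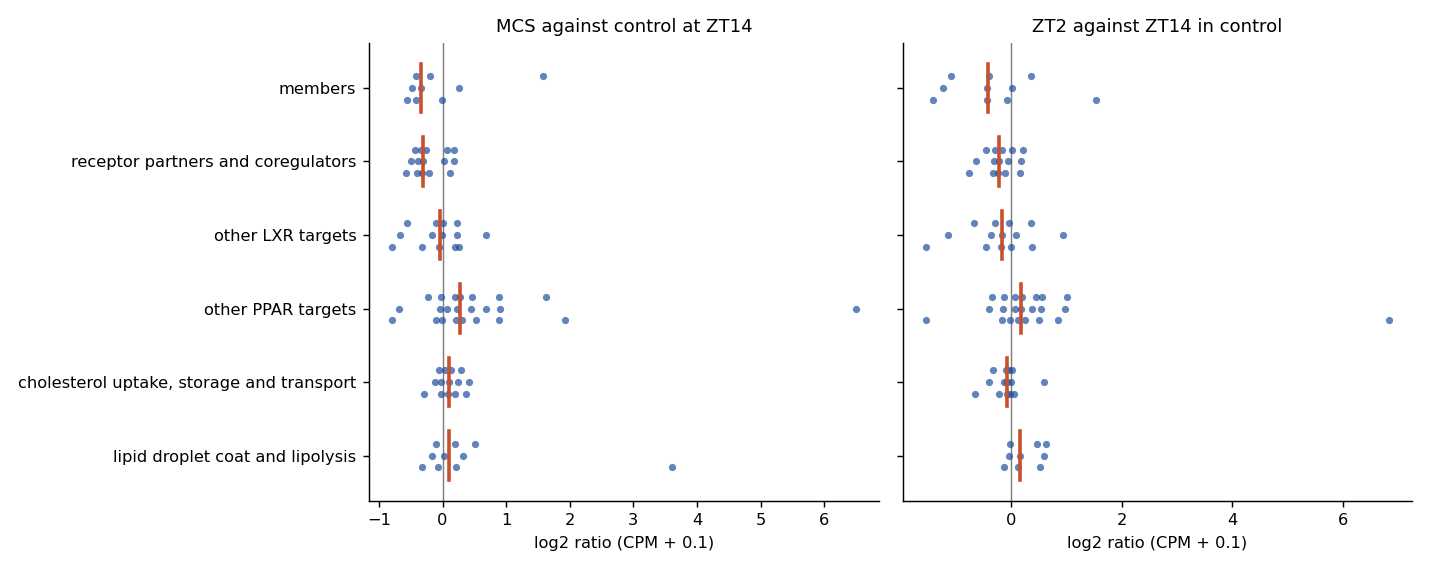
Log2 ratio of each tested gene of the 6 lists for MCS against control at ZT14 (left) and for ZT2 against ZT14 in control (right); points are genes, red bars list medians and the grey line the median of all genes, and rows of points are spread for legibility. The point beyond 6 is *Pdk4*, which had no read in control at ZT14 and whose plotted place depends on the added 0.1 CPM.

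Genes of cholesterol uptake, storage and transport had a median log2 ratio of 0.10 at ZT14 over the 14 tested of 16, and none was called in any of the 4 comparisons. The uptake receptor *Lrp1* had 4047 CPM in Cont_ZT14 and 4315 CPM in MCS_ZT14, and the scavenger receptor *Msr1* had 475 and 578 CPM. *Npc2*, which carries cholesterol out of lysosomes, had a log2 ratio of 0.37 (0.31 to 0.43), and *Soat1*, which esterifies cholesterol for storage, had -0.12 (-0.21 to -0.03). The high-density lipoprotein receptor gene *Scarb1* was called by the count test for time, 0.72 lower at ZT2 on the log2 scale (adjusted p = 0.033, edgeR). The other lipid droplet and lipolysis genes had a median of 0.11 over 10 tested genes at ZT14. *Mgll*, the monoacylglycerol lipase gene, was called at ZT14, at 0.330 CPM (3 reads) in Cont_ZT14 and 5.11 CPM in MCS_ZT14, a log2 ratio of 3.60 (2.33 to 6.28). It passed the minimum expression there through MCS_ZT14 alone. *Plin3*, a coat protein of nascent droplets, had a log2 ratio of 0.33 (0.14 to 0.52), below that of *Plin2*. *Pnpla2*, the first lipase of droplet breakdown, had 85.8 and 56.8 CPM in Cont_ZT2 and Cont_ZT14, and 97.2 and 57.7 CPM in MCS_ZT2 and MCS_ZT14, and the count test called it for time (adjusted p = 0.020, edgeR). DESeq2 called neither *Scarb1* nor *Pnpla2*. *Lipe* and *Bscl2* had log2 ratios of -0.16 and 0.21 at ZT14.

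The genes closest to the called members were searched by the Euclidean distance between log2 values over the 4 libraries, each gene centered on its mean, among 8630 other genes with a mean of at least 10 CPM. Closest to *Abcg1* were *Scd2*, at a distance of 0.15, then *Plekha6*, *Mylip*, *P2ry2* and *Mid1ip1*, at 0.31 to 0.34. Closest to *Mylip* were *Pdlim7* (0.09), *E2f2*, *Prickle1*, *Rasgrp3* and *Shank3* (0.27). *Plin2* had fewer close neighbors, with *Stmn1*, a microtubule regulator, at 0.20 and *Top2a*, a topoisomerase of dividing cells, at 0.49. *Fabp7*, a further fatty acid-binding protein gene, followed at 0.55, with 73.5 and 27.4 CPM in Cont_ZT2 and Cont_ZT14, and 61.3 and 73.0 CPM in MCS_ZT2 and MCS_ZT14. *Rab44* and the mast cell tryptase gene *Tpsab1* came next, at 0.57 each. *Tpsab1* had 22.6 CPM in Cont_ZT14 and 45.0 CPM in MCS_ZT14. Of the 6 mast cell marker genes listed, which do not include it, 5 were lower with MCS at ZT14 and 1 was higher. With 4 libraries such likeness is a description.

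Marker genes of the sorted cells were present, with the 8 large peritoneal macrophage genes summing to between 11379 and 12629 CPM and the 7 small peritoneal macrophage genes to between 613 and 877 CPM. Of 8 adipocyte markers, 3 had values, summing to between 29.0 and 33.2 CPM, nearly all of it *Lipe*, and *Adipoq*, *Lep*, *Cidec*, *Cfd* and *Slc2a4* had none. *Fabp4* and *Pparg* are both abundant in fat cells. The 5 endothelial genes with values, of 8, summed to between 83.1 and 99.9 CPM, nearly all of it *Pecam1* and *Cd300lg*. *Cdh5*, *Kdr* and *Tek* had at most 1.04 CPM in any library, and *Cldn5*, *Gpihbp1* and *Rbp7* had no values. In Cont_ZT2, Cont_ZT14, MCS_ZT2 and MCS_ZT14, 6 mesothelial genes summed to 11.7, 5.27, 16.9 and 6.65 CPM, and the 5 fibroblast genes with values to 15.5, 4.06, 19.7 and 9.51 CPM. The 6 mast cell genes, none at 0, summed to 1726, 1127, 2111 and 902 CPM in the same order, with MCS_ZT14 lowest. The 6 B cell genes, none at 0, summed to 1149, 1400, 1125 and 965 CPM, with Cont_ZT14 highest. Neutrophil genes reached 89.7 CPM in MCS_ZT2 and lay between 5.32 and 17.4 CPM elsewhere. In the same order of libraries the 6 red blood cell genes with values summed to 3.23, 1.32, 36.7 and 112 CPM. Of these, *Hbb-b2* and *Hbb-bt* had identical values, and *Hba-a2* had 49.5 CPM in MCS_ZT14 and 0 CPM in every other library. The eosinophil genes *Siglecf* and *Ccr3* summed to 6.58, 1.98, 18.0 and 48.0 CPM, while the other 4 of 6 listed, *Epx*, *Prg2*, *Ear1* and *Ear6*, had no values. The part of these cells in the results was not tested.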

How the data were processed

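RNA of sorted peritoneal macrophages was analysed in 4 libraries, 1 per condition. Per the labels and methods, the authors prepared rRNA-depleted directional libraries, trimmed reads with Trimmomatic 0.38, counted them with RSEM 1.3.0 and Bowtie 2 on mm10 and deposited CPM normalized with edgeR. The annotation version and whether strand was used in counting are not given in the sources used here. All 61192 values were whole reads within 0.05 read of a step per library, and these reads were used for intervals and the count test. RSEM estimates can be fractional, whereas these were whole.

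Ratio intervals are exact conditional binomial (Clopper-Pearson) and those of single libraries exact Poisson; differences of ratios have Wald intervals. The additive count test (edgeR 4.0.16, at least 40 reads) and DESeq2 1.42.0 ran in R 4.3.3, the rest in Python 3.11.15. Ratios and the count test were tested on simulated data. Named genes were every member, each list gene called in a comparison, the 4 most abundant of each list, and for called members with a log2 mean above 3 the 5 closest genes; genes called only by the count test were named after their values were seen. A gene that the rule names is not reported here. Members and lists were chosen with earlier results of these data known. Locations and lengths came from GENCODE M21 (GRCm38, the mm10 build).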

Additional observations from a re-analysis of the deposited data

Results flagged for a closer look

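Of the 39 named pathway genes, members included, 13 had MCS to control ratios in opposite directions at ZT14 and ZT2 with both counting intervals leaving out 0, as did 10.2% of all 12236 genes tested at both times. Of the 9 receptor and target genes tested at both times, 1 did so, *Apoe*, or 11.1%. Many of the named genes were chosen for abundance, which narrows the intervals. The difference between the times was not tested between mice, because each condition has 1 library, and each value below is a log2 ratio of MCS to control. The differences were computed without the added 0.1 CPM. Lower with MCS at ZT14 and higher at ZT2 were *Apoe*, with -0.41 at ZT14 and 0.15 at ZT2, a difference of -0.57, and *Soat1*, with -0.12 at ZT14 and 0.15 at ZT2, a difference of -0.28. The coregulators *Ep300*, *Ncor1* and *Ncoa3* did the same, where *Ep300* had -0.30 at ZT14 and 0.32 at ZT2, a difference of -0.62. *Ncor1* had -0.40 at ZT14 and 0.23 at ZT2, a difference of -0.62. *Ncoa3* had -0.21 at ZT14 and 0.14 at ZT2, a difference of -0.35. Higher with MCS at ZT14 and lower at ZT2 was *Hilpda*, with 0.90 at ZT14 and -1.03 at ZT2, a difference of 1.99, on few reads. *Cd5l* had 0.68 at ZT14 and -0.36 at ZT2, a difference of 1.04. The scavenger receptors *Msr1* and *Cd36* had 0.28 at ZT14 and -0.30 at ZT2, a difference of 0.58, and 0.30 at ZT14 and -0.13 at ZT2, a difference of 0.43, in this order. *Npc2* had 0.37 at ZT14 and -0.12 at ZT2, a difference of 0.49. *Hadha* had 0.21 at ZT14 and -0.17 at ZT2, a difference of 0.38. *Smpdl3a* had 0.19 at ZT14 and -0.08 at ZT2, a difference of 0.27. *Lrp1* had 0.09 at ZT14 and -0.11 at ZT2, a difference of 0.21.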

How the results depend on the processing

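With 1 library per condition no library could be left out: the additive fit would keep no residual degrees of freedom. The 160 member ratios recomputed with 1 or 0.01 CPM added, centered on the median or with TMM factors lay inside their counting intervals, and none of the called ones changed sign. The TMM factors gave the scale that the CPM already had, so those ratios had to repeat. The largest shift was 1.3e-06 with TMM factors and 0.0053 with centering, so only the added CPM could move a ratio visibly. *Pparg* at ZT2 lost its call, leaving 0 members, with 1 CPM added or a log2 mean above 3. *Nr1h3* lost its call in control the same way, leaving 3 of 4. With a threshold of 1.5-fold, 2 members were called between the times in MCS. The count test for MCS called 1 member, *Plin2*, with a minimum of 10 reads (adjusted p = 0.00018) or TMM factors recomputed on the tested genes (0.032), while DESeq2 gave 0.99997. Of the pathway lists, *Pdk4* was also called for MCS with 10 reads (9.6e-05). For time DESeq2 called 2 members. The cause of these changes was not tested. Over all genes, 1 CPM, no minimum, a log2 mean above 3 and 1.5-fold gave 174, 1615, 81 and 1493 calls for MCS at ZT14 in place of 421. They gave 101, 1434, 26 and 981 at ZT2 in place of 279, 229, 1567, 139 and 1469 for time in control in place of 450, and 409, 2053, 197 and 2239 in MCS in place of 731. The count test called 23 genes for MCS, 43 with 10 reads and 5 with DESeq2, and for time 271 and, with DESeq2, 81. Depth limits *Pparg*, *Nr1h3* and *Fabp4*, with 6 to 72 reads per library.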
